A study of Mus musculus with 6 samples.

Results

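The CXC chemokines examined here were Cxcl1, Cxcl2, Cxcl5, Cxcl9, Cxcl10, Cxcl12, Cxcl13, Cxcl14, Cxcl15 and Cxcl16, chosen by name. All 10 were among the 24077 genes counted in single cells and among the 30828 genes counted in tissue sections. The uteri came from CD-1 mice aged 12 months that had been dosed on days 1 to 5 of life with corn oil, the vehicle (CO), or with diethylstilbestrol, a synthetic estrogen, at 1 mg/kg/day in corn oil (DES). The single-cell samples were 1 CO library pooled from 2 mice and 1 DES library pooled from 4 mice. The spatial samples were 2 CO sections and 2 DES sections from 1 mouse each, called A where the label has no letter and B where it has one. The study notes a tissue fold in section CO B and poorly separated spot clusters in section DES B. A pathologist had examined sections for luminal and glandular epithelium, and DES sections also for adenocarcinoma. Mice were then selected and their blocks cored to the areas of interest. The study describes cancer regions in DES tissue used for spatial counts, so the sections are chosen tissue.

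CXC chemokines are small secreted proteins that steer leukocytes by binding G protein-coupled receptors. Members that carry the glutamate-leucine-arginine (ELR) motif, Cxcl1, Cxcl2, Cxcl5 and the mouse gene Cxcl15, draw neutrophils, with Cxcr2 as the receptor of Cxcl1, Cxcl2 and Cxcl5. Cxcl9 and Cxcl10 are induced by interferon and attract T cells and natural killer cells that carry Cxcr3. Cxcl12, Cxcl13 and Cxcl14 are made by resting tissue, Cxcl12 acting through Cxcr4 and Cxcl13 drawing B cells through Cxcr5, while Cxcl16 is made as a membrane protein that binds Cxcr6 on T cells. In the uterus these genes take part in leukocyte traffic over the cycle, in pregnancy and in infection.

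Of the 10 genes, 7 lie on chromosome 5 of GRCm38 (mm10), all protein coding in GENCODE M21. The ELR genes Cxcl5 (90759360 to 90761624), Cxcl15 (90794534 to 90803067), Cxcl1 (90891241 to 90893115) and Cxcl2 (90903871 to 90905938) lie on the plus strand within 146.6 kb, with 10755 bases between Cxcl1 and Cxcl2. Cxcl9 (92321347 to 92328079) and Cxcl10 (92346638 to 92348889) are neighbours on the minus strand, and Cxcl13 (95956951 to 95961068) is on the plus strand. Cxcl12 is on chromosome 6 (117168535 to 117181367), Cxcl16 on chromosome 11 (70453983 to 70459984) and Cxcl14 on chromosome 13 (56288643 to 56296551).

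The promoters of Cxcl1, Cxcl2 and Cxcl10 are shown because these genes shared high clusters among DES epithelial cells, described further on. A further reason is that theirs were the promoters of the set that held the consensus motif of the transcription factor NF-kappaB. The letters are the stretch from 160 to 41 bases before the transcription start, 120 bases on the gene's own strand, from RefSeq on GRCm38.p6, and capitals mark the bases matching the NF-kappaB consensus on either strand. The windows are chr5:90891085-90891204 (plus strand) for Cxcl1, chr5:90903739-90903858 (plus strand) for Cxcl2 and chr5:92348930-92349049 (minus strand) for Cxcl10.
Cxcl1: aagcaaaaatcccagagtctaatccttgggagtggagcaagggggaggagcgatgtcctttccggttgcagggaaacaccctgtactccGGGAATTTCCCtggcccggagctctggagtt
Cxcl2: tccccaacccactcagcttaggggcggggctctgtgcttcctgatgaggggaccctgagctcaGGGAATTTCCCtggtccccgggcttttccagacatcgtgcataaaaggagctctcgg
Cxcl10: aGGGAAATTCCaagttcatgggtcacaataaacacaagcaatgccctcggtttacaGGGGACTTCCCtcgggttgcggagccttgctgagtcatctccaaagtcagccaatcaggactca
Of the 10 genes, 8 had a promoter entry, all but Cxcl5 and Cxcl16. Searched over 250 bases before the start on both strands, with overlapping matches allowed, the motif was in 3 of these 8 promoters and in 2382 of 32851 promoters (7.25%). The matches began 71 bases before the start of Cxcl1, 97 before that of Cxcl2, and 159 and 104 before that of Cxcl10. Cxcl1 and Cxcl2 shared a run of 14 bases, gggaatttccctgg, that was in 2 of the 32851 promoters. A match describes letters in this window and is not evidence of binding.

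The CO library held 32387 cells and the DES library 16312, with medians of 6779 and 10153.5 unique molecular identifiers (UMIs) per cell, and 12253 and 9701 cells carried a cell type from the authors. The libraries shared 180 cell barcodes (1.1% of DES cells), 32 of them on cells with a cell type in both. The sections held 1357 to 1834 spots and 9117099 to 12506177 UMIs. Of DES cells 1 was labelled stromal and 5 endothelial, so those types were compared within CO only. The cells labelled lymphocytes also carried neutrophil markers (8 genes, summed level 2637 CPM in CO and 7906 CPM in DES) and plasma cell markers (5 genes, 135436 and 11894 CPM). Cells labelled mesothelial held mesothelial markers (5 genes, 2492 and 2650 CPM) and also stromal markers (8 genes, 24164 and 24351 CPM). A level here is the gene's share of all UMIs of a group, scaled as CPM, with an exact Poisson 95% interval, and shares of cells with a UMI were taken after each cell had been thinned to 3000 UMIs. The intervals reflect counting error alone. Since each condition had a single library, CO and DES cells were not tested against each other. Fewer cells of a type and less RNA per cell cannot be told apart in sections.

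**Figure D1:**
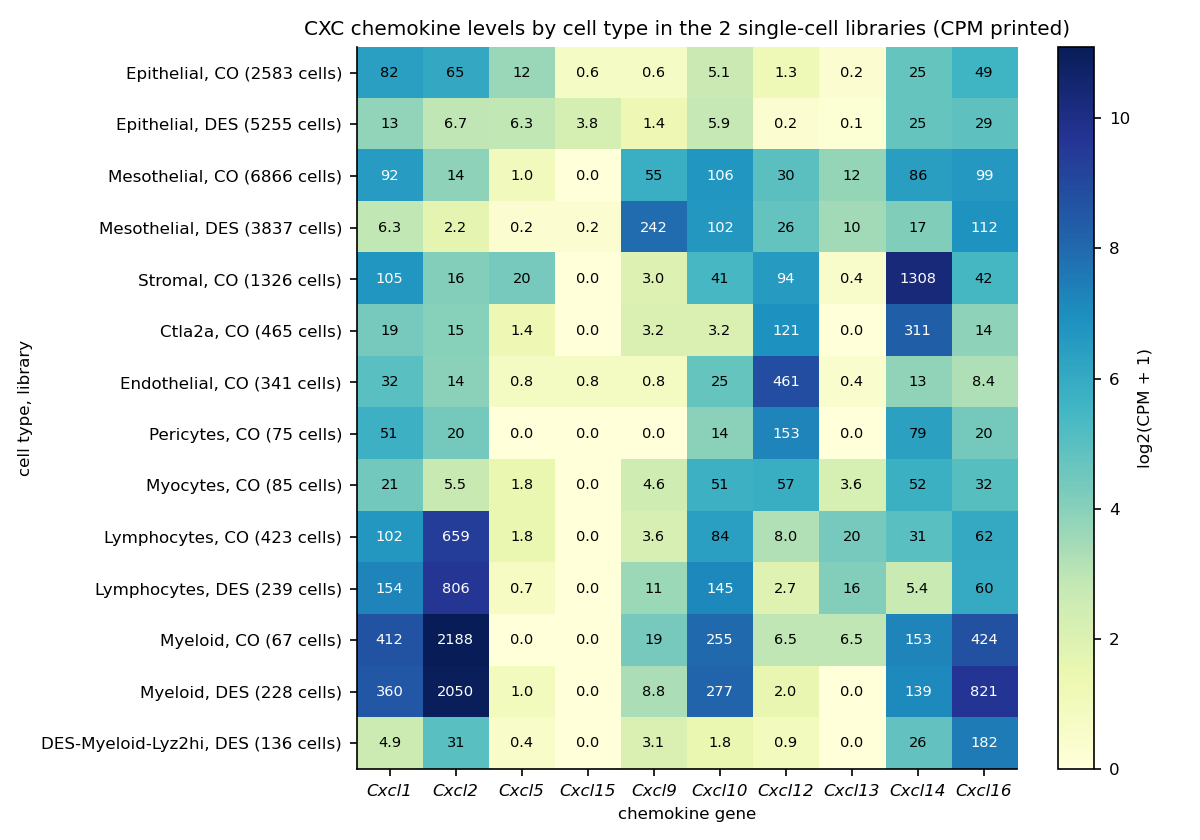
Level of each chemokine (columns) in each cell type and library with at least 50 cells (rows), coloured by log2(CPM + 1) with the CPM printed in each cell of the grid. Cxcl2 was 2188 CPM in CO and 2050 CPM in DES myeloid cells, Cxcl14 was 1308 CPM in CO stromal cells, and Cxcl9 was 242 CPM in DES mesothelial cells.

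Among the ELR genes, Cxcl1 and Cxcl2, inducible neutrophil attractants, were high in CO epithelial cells and low in most DES epithelial cells. Cxcl1 stood at 82.4 CPM (95% interval 80.4 to 84.4) in 2583 CO epithelial cells and at 12.9 CPM (12.4 to 13.5) in 5255 DES epithelial cells, 6.37-fold lower (6.07 to 6.68). Cxcl2 stood at 65.2 CPM (63.4 to 67.0) and 6.70 CPM (6.32 to 7.09), 9.74-fold lower in DES (9.14 to 10.4). As a mean over cells of each cell's CPM the ratio of DES to CO was 0.251 for Cxcl1 and 0.176 for Cxcl2, against 0.157 and 0.103 from the summed UMIs. After thinning, 13.5% of 2562 CO cells and 2.54% of 5201 DES cells held a Cxcl1 UMI, against 40.3% and 8.43% before thinning. Of the 10 chemokines 5 reached 10 CPM in epithelial cells. None of these was over 2-fold higher in DES, a size reached by 7.06% of all genes, and 2, Cxcl1 and Cxcl2, were over 2-fold lower, a size reached by 7.21%.

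The DES level came mostly from a single basal cluster. Clusters 8 and 11 of the deposited integrated epithelial clustering are taken for basal cells in the study. The basal markers Krt14, Krt5 and Trp63 summed to 5869 CPM in cluster 8, 4961 CPM in cluster 11 and 86.5 CPM in the other DES epithelial cells, and neither cluster held a CO cell. Cluster 8 held 351 of the 5255 DES epithelial cells (6.68%), and Cxcl1 there was 243 CPM (231 to 255), which made up 71.9% of all epithelial Cxcl1 UMIs of the library. Cluster 11, with 257 cells, held 3.46 CPM of Cxcl1 (1.89 to 5.81), and the other 4647 DES epithelial cells held 3.79 CPM (3.49 to 4.09). The level in cluster 8 was thus above that of CO epithelial cells, and the level in the remaining DES cells far below it.

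Cxcl2 and Cxcl10 had the same place. Cxcl2 was 127 CPM (118 to 135) in cluster 8, 1.24 CPM in cluster 11 and 1.94 CPM in the other DES epithelial cells. Cxcl10 was 111 CPM (103 to 119) in cluster 8, 2.23 CPM in cluster 11 and 1.74 CPM elsewhere, so that cluster 8 held 72.4% of the epithelial Cxcl2 UMIs and 71.6% of the Cxcl10 UMIs. Cxcl5 did not share it, at 2.22 CPM in cluster 8, 7.42 CPM in cluster 11 and 6.43 CPM elsewhere. The clusters were formed on these counts, so the levels are a description.

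Each library was also clustered on its own by the authors. The DES clustering holds 4608 cells, among them 5 of the 608 basal ones. Here the CO epithelium held Cxcl1 in several clusters and the DES epithelium in 1. Of 15 CO clusters, cluster 11 had 182 CPM, cluster 0 had 174 CPM, cluster 7 had 164 CPM and cluster 5 had 106 CPM, with a median of 37.1 CPM and a lowest value of 8.39 CPM. Of 16 DES clusters, cluster 9 (190 cells) had 46.7 CPM (42.0 to 51.8) and the next had 3.30 CPM, with a median of 1.76 CPM. Cxcl2 was led by the same clusters, at 154 CPM in CO clusters 0 and 11 and 20.4 CPM in DES cluster 9. Over clusters, log2(CPM + 1) of Cxcl1 and Cxcl2 correlated at 0.90 in CO (15 clusters) and 0.93 in DES (16 clusters). Cxcl1 correlated at 0.51 and 0.87 with Cxcl10, at 0.83 and 0.16 with Cxcl16, and at 0.40 and 0.08 with Cxcl5. In DES, Cxcl10 also stood far higher in cluster 9 (30.8 CPM) than in the next cluster (1.46 CPM). The part of cluster 9 in the DES values was not tested. In CO the highest clusters of Cxcl10 were others, cluster 14 at 44.1 CPM and cluster 13 at 13.5 CPM. The clusters share a library, and these values carry no test.

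**Figure D2:**
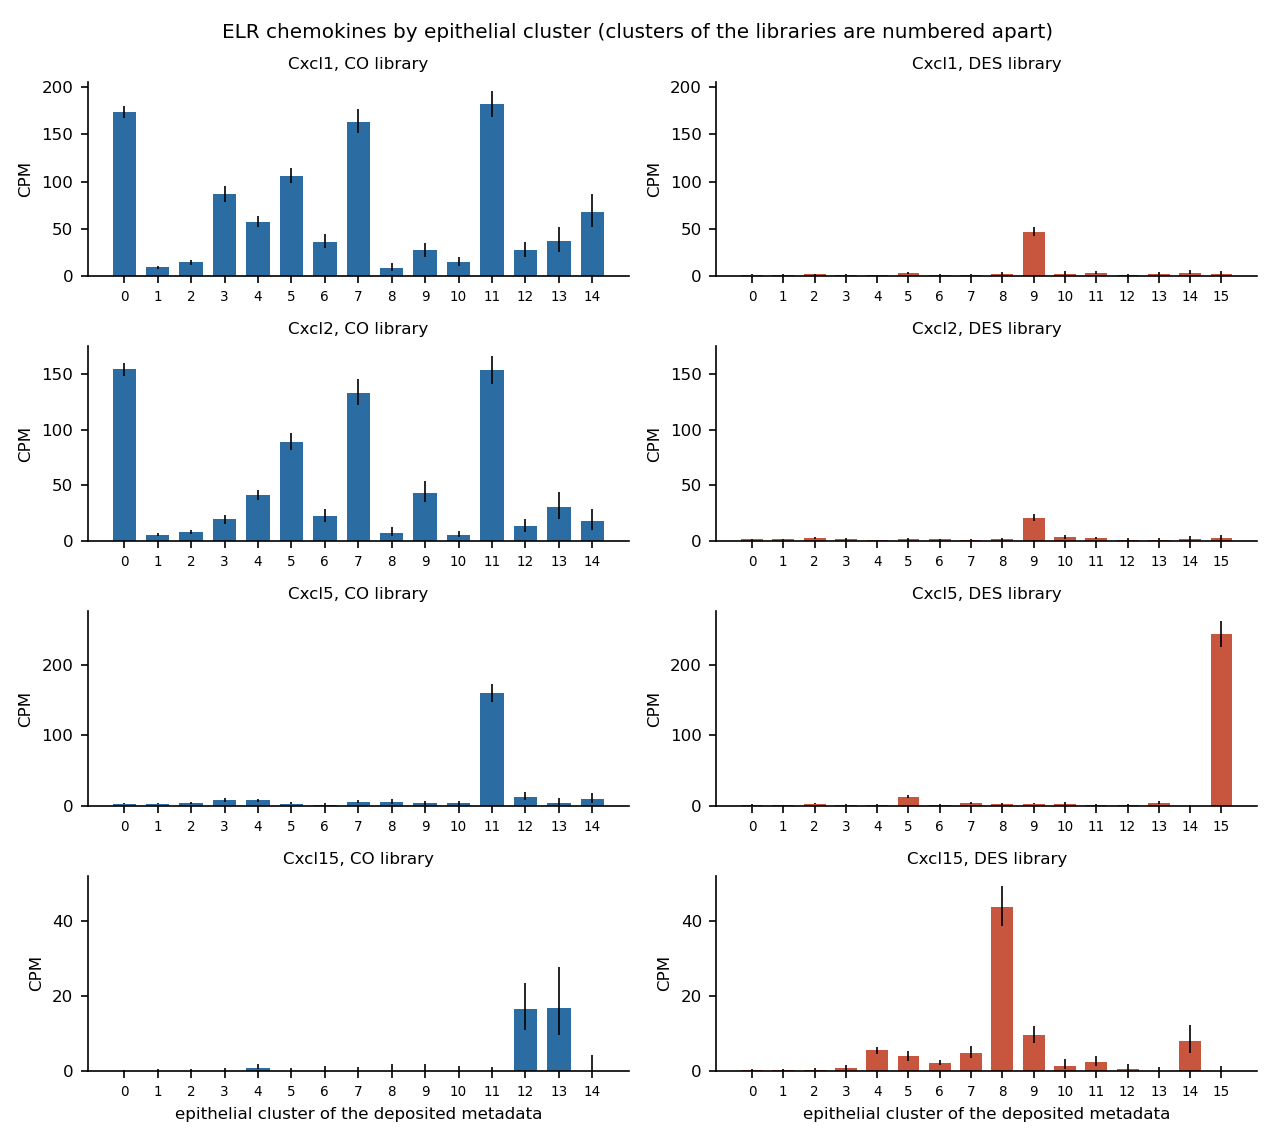
Level in CPM (bars, with 95% Poisson intervals) of Cxcl1, Cxcl2, Cxcl5 and Cxcl15 in the 15 CO and 16 DES epithelial clusters, which are numbered separately in the libraries. Cxcl1 peaked at 182 CPM in CO cluster 11 and 46.7 CPM in DES cluster 9, and Cxcl5 at 160 CPM in CO cluster 11 and 244 CPM in DES cluster 15.

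Counted without thinning, the share of cells that held both transcripts varied with cell type. Median depth varied too, at 23458 UMIs in epithelial, 10436 in mesothelial and 7161 in myeloid cells of CO. The part of depth was not tested. Of CO epithelial cells, 434 held both, which was 41.7% of the 1040 with Cxcl1 and 67.9% of the 639 with Cxcl2, while Cxcl2 was found in 24.7% of all CO epithelial cells. In DES 99 epithelial cells held both, 22.3% of 443 and 38.1% of 260, against 4.95% of all DES epithelial cells with Cxcl2. In CO myeloid cells 35 of the 36 cells with Cxcl1 also held Cxcl2, and in DES myeloid cells 73 of 78 did, but Cxcl2 was also found in 77.6% and 61.4% of all these cells. In mesothelial cells a smaller share did, 201 of 1479 in CO (13.6%) and 4 of 128 in DES (3.12%), where 8.77% and 2.40% of all mesothelial cells held Cxcl2.

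Outside the epithelium the highest levels of this pair were in myeloid cells. Cxcl2 was 2188 CPM (2072 to 2308) in 67 CO myeloid cells and 2050 CPM (1989 to 2114) in 228 DES myeloid cells, and Cxcl1 was 412 and 360 CPM. The 136 DES cells that the authors call Lyz2-high myeloid cells held 31.0 CPM of Cxcl2 and 4.94 CPM of Cxcl1. In mesothelial cells, which line the outer surface of the uterus, Cxcl1 was at 91.9 CPM in CO and 6.27 CPM in DES, 14.7-fold lower (13.3 to 16.2), and Cxcl2 at 13.9 and 2.15 CPM. CO stromal cells held 105 CPM of Cxcl1. A few cells carried much of the signal in lymphocytes, where 10 cells held 93.9% of the DES Cxcl1 UMIs and 74.7% of the DES Cxcl2 UMIs.

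In sections, Cxcl1 and Cxcl2 were scarce, and 1 DES section held most of them. Cxcl1 was at 1.52 and 0.272 CPM in CO A and CO B and at 8.01 and 2.23 CPM in DES A and DES B, from 19, 3, 73 and 22 UMIs. Cxcl2 was at 0.16, 0.181, 9.65 and 0.709 CPM, from 2, 2, 88 and 7 UMIs. The groups did not overlap for either gene, and the pooled ratio of DES to CO was 5.35 for Cxcl1 (counting interval 3.34 to 8.94) and 29.4 for Cxcl2 (11.1 to 110). Between sections Cxcl1 differed by 2.24 on the log2 scale (SE 0.96, adjusted p 0.243). This and all later adjusted p values of section comparisons are from quasi-likelihood fits in edgeR, adjusted after Benjamini and Hochberg over all genes tested. Cxcl2 was below the count filter. Mean levels in epithelium-rich spots were 1.17 CPM in CO and 6.81 CPM in DES for Cxcl1 (edgeR, adjusted p 0.369), from 18 and 89 UMIs. For Cxcl2 they were 0.305 and 6.90 CPM, from 4 and 89 UMIs. Neither gene's groups overlapped there. This order was the reverse of that in single epithelial cells, and the reason was not tested.

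Spot cluster 8 of DES A, 61 spots led by Il1b, Il1rn, S100a8, S100a9 and Clec4n, held 54.8% of that section's Cxcl1 UMIs and 56.8% of its Cxcl2 UMIs, at 53.3 and 66.6 CPM. Neutrophil markers summed to 2209 CPM there, against 280 CPM over the section and 17.3 to 30.0 CPM in the other sections. Without this cluster, an alternative chosen after seeing the data, the log2 difference of Cxcl1 was 1.52 (edgeR, adjusted p 0.336). The part of the neutrophils in the Cxcl1 and Cxcl2 levels was not tested.

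Cxcl5, another Cxcr2 ligand made by epithelia, differed more between sections of 1 group than between groups. It was at 49.9 and 0.725 CPM in CO A and CO B and at 265 and 54.7 CPM in DES A and DES B, from 624, 8, 2413 and 540 UMIs. Both DES sections were above both CO sections, but the CO sections differed from each other far more than CO A from DES B. The log2 difference was 2.40 (SE 1.63, adjusted p 0.441 by edgeR), and without CO A it was 7.55, so its size depended on that section. Without CO A the CO side rests on the 8 UMIs of CO B, and more of all genes were called as well. With all sections Cxcl5 passed by edgeR in stroma-rich (adjusted p 0.00179) and muscle-rich spots (0.00640) when genes with at least 1 UMI were tested. In stroma-rich spots that fit called 567 of all genes higher and 628 lower, against 162 and 96 in the reported fit. In muscle-rich spots it called 764 and 709, against 438 and 272.

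Within every section Cxcl5 was highest in epithelium-rich spots, at 71.5, 1.40, 352 and 67.4 CPM in CO A, CO B, DES A and DES B. In CO B this rests on 8 UMIs. It was at 41.1, 0, 76.6 and 34.1 CPM in stroma-rich spots and at 7.57, 0, 32.6 and 16.1 CPM in muscle-rich spots. Each spot covers several cells, and a region is the set of spots whose score was highest for epithelial (5 genes), stromal (8 genes) or muscle (6 genes) markers. Its highest spot clusters were cluster 5 of CO A at 404 CPM, which the study places in glands, cluster 10 of CO B at 25.4 CPM, cluster 8 of DES A at 1566 CPM and cluster 7 of DES B at 263 CPM. They held between 48.7% and 72.2% of their section's Cxcl5 UMIs, which in CO B was 62.5% of 8 UMIs. Cluster 10 of CO B, 17 spots led by Krt6a, Krt13 and Lgals7, also held 6025 CPM of basal markers, in a CO section.

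In single cells Cxcl5 was as uneven. Epithelial levels were 11.8 CPM in CO (11.1 to 12.6) and 6.30 CPM in DES (5.93 to 6.68), and 10 cells held 50.4% and 58.2% of these UMIs. CO cluster 11 (97 cells) stood at 160 CPM and held 64.6% of the Cxcl5 UMIs of the cells in the CO clustering. DES cluster 15 (54 cells) stood at 244 CPM (226 to 263) and held 65.2% of those in the DES clustering. In the other clusters Cxcl5 reached at most 13.0 CPM in CO and 12.4 CPM in DES.

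Cxcl15, also called lungkine and known from lung epithelium, was higher in DES sections. It was at 0.400 and 0.363 CPM in CO A and CO B and at 12.0 and 27.8 CPM in DES A and DES B, from 5, 4, 109 and 275 UMIs. The groups did not overlap, and the pooled ratio was 52.9 (27.6 to 117). The log2 difference was 5.47 (SE 0.63, adjusted p 0.0241 by edgeR). Without DES B the adjusted p was 0.0828 at a log2 difference of 4.67.

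Cluster 1 of DES A held 73.4% of that section's Cxcl15 UMIs at 23.0 CPM, and cluster 8, with 13.8% of these UMIs, had a level close to it. Cluster 7 of DES B held 49.8% at 92.4 CPM, and the next was cluster 3 at 22.7 CPM. In stroma-rich spots it was at 0 and 1.35 CPM in CO and 3.33 and 54.1 CPM in DES, the highest of these in DES B. Among single cells it was at 0.635 CPM in CO epithelium (0.471 to 0.837, from 50 UMIs) and 3.82 CPM in DES epithelium (3.54 to 4.12, from 673 UMIs). Epithelial cells held 86.1% of the DES library's Cxcl15 UMIs. The share of thinned cells with a UMI was 0.156% in CO and 1.00% in DES epithelium (0.619% and 4.49% before thinning) at median depths of 23458 and 21900 UMIs, and 0 and 0.0529% in mesothelial cells at 10436 and 12329 UMIs. DES cluster 8 of the DES clustering stood at 43.9 CPM, and in CO the level was 16.8 CPM in cluster 13 and 16.4 CPM in cluster 12, with no UMI in 12 of the 15 clusters.

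**Figure D3:**
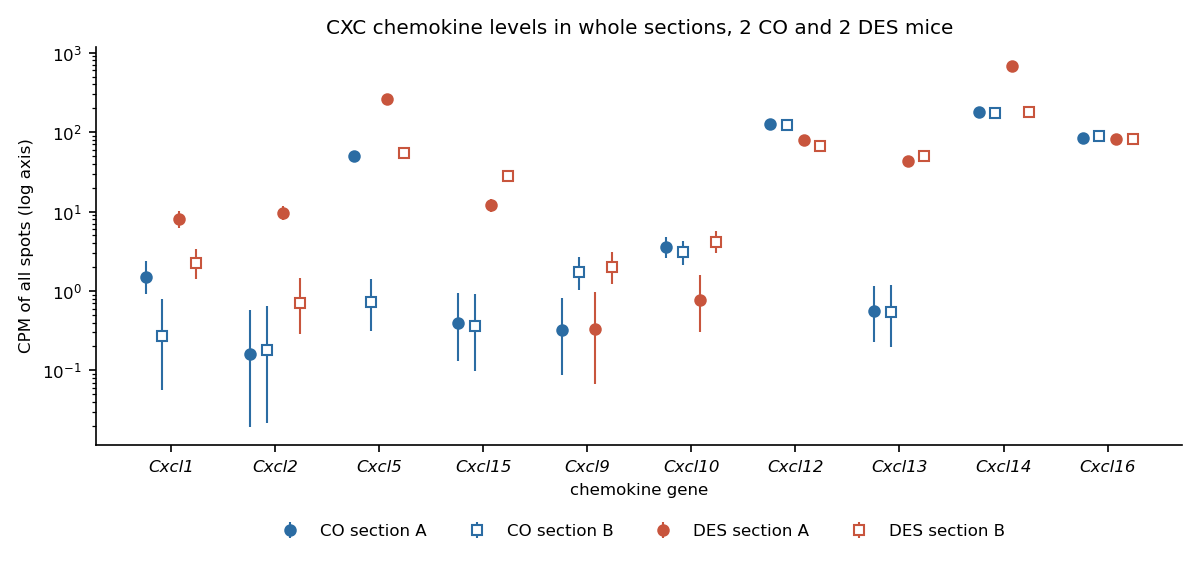
Level of each chemokine in the 4 sections in CPM on a log axis, with 95% Poisson intervals. Cxcl13 was at 0.560 and 0.544 CPM in CO and 43.5 and 49.8 CPM in DES, and Cxcl15 at 0.400 and 0.363 CPM in CO and 12.0 and 27.8 CPM in DES, while Cxcl16 stayed between 81.4 and 89.5 CPM.

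Across whole sections 14098 genes were tested, of which 2.67% were higher and 2.63% lower in DES. Of the 10 chemokines 9 passed the count filter, 2 were higher (Cxcl13 and Cxcl15) and 1 was lower (Cxcl12), and their median log2 difference was 1.07 against -0.01 for all genes. With 2 sections against 2 an exact permutation test cannot go below 0.333, so the adjusted p values lean on the variance that edgeR shares across genes. The p-values measure the spread between sections of different mice. All comparisons of DES with CO use the same CO sections. Leaving out CO A or CO B raised the number of genes called in each of these comparisons. Calls gained that way are thus not particular to a chemokine. The number of genes called, 747, fell to 14 without DES A and 3 without DES B, so calls lost without a DES section are common to nearly all genes. The differences are on the scale set by TMM normalization, which lies 0.21 below that of CPM on the log2 scale in whole sections.

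Cxcl13 had the clearest difference of the set. It was at 0.560 and 0.544 CPM in CO A and CO B, from 7 and 6 UMIs, and at 43.5 and 49.8 CPM in DES A and DES B, from 397 and 492 UMIs. The group levels were 0.552 ± 0.0112 CPM (SD, n = 2) and 46.7 ± 4.42 CPM (SD, n = 2), and 0.488% and 0.327% of CO spots held a UMI against 13.7% and 15.8% of DES spots. The log2 difference was 6.17 (SE 0.27, adjusted p 0.0136 by edgeR), and without DES B it was 6.02 (adjusted p 0.0515).

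The Cxcl13 difference was present in each region. In epithelium-rich spots the level was 0.130, 0, 52.0 and 58.5 CPM in CO A, CO B, DES A and DES B. The CO value there rests on 1 UMI against 748 in DES, a pooled ratio of 743 with a counting interval of 133 to 29403. In stroma-rich spots it was 1.79, 1.35, 25.3 and 29.1 CPM, and in muscle-rich spots 1.08, 1.05, 20.9 and 27.2 CPM, with no overlap between groups in any region.

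In epithelium-rich spots 2.9% of 13084 genes were higher in DES and 2.09% lower, and of 8 chemokines tested there Cxcl13 (adjusted p 0.0148, edgeR) and Cxcl15 (log2 difference 5.10, SE 0.56, adjusted p 0.0232) were higher. None was lower by edgeR, while 1, Cxcl12, was lower at an unadjusted p under 0.05 and with DESeq2. Without DES A or DES B neither passed, with adjusted p values of 0.0919 and 0.111 for Cxcl13 and 0.0959 and 0.123 for Cxcl15. Basal markers in epithelium-rich spots were at 4.68 and 273 CPM in CO and 10898 and 6354 CPM in DES, and their part in these calls was not tested. In stroma-rich spots 1.52% of 10642 genes were higher and 0.902% lower. Of 5 chemokines tested there Cxcl13 was higher (log2 difference 3.93, SE 0.50, adjusted p 0.0210 by edgeR). None was lower by edgeR, with 0 at an unadjusted p under 0.05 and 0 by DESeq2. When genes with at least 1 UMI were tested, 4 of the 10 were higher there (Cxcl5, Cxcl13, Cxcl14 and Cxcl15) and 2 lower (Cxcl10 and Cxcl12). Of all 17071 genes in that fit 567 were higher and 628 lower. The Cxcl13 call of the reported fit was lost without DES A and in the spot clusters that the study names stroma (adjusted p 0.0518 by edgeR). In muscle-rich spots 3.68% of 11916 genes were higher and 2.28% lower, and of 5 chemokines tested Cxcl13 (4.19, SE 0.45, adjusted p 0.00358) and Cxcl14 (2.02, SE 0.46, adjusted p 0.0451) were higher and Cxcl16 was lower (-0.98, SE 0.22, adjusted p 0.0462). Cxcl13 passed there under all 8 alternatives. When genes with at least 1 UMI were tested, 4 of 9 chemokines were higher there (Cxcl5, Cxcl13, Cxcl14 and Cxcl15) and 1 was lower. Of all 17663 genes in that fit 764 were higher and 709 lower. Cxcl15 had 0 UMIs in muscle-rich spots of both CO sections, which allows up to 0.811 and 0.785 CPM, and 4 and 23 UMIs in DES A and DES B, or 3.34 and 12.8 CPM. It was below the count filter of the reported fit, and passed with genes of at least 1 UMI (adjusted p 7.57e-05) and without CO A (0.0256), CO B (0.0214) or DES A (0.00647). The marker sums of muscle-rich spots also differed, with muscle markers at 47472 and 43826 CPM in CO and 21086 and 17034 CPM in DES, epithelial markers at 393 and 357 against 1033 and 1503 CPM, and basal markers at 1.35 and 10.2 against 4532 and 3482 CPM. Plasma cell markers there were at 334 and 316 CPM in CO and 10882 and 24293 CPM in DES, and the part of these cells in the muscle-rich calls was not tested.

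**Figure D4:**
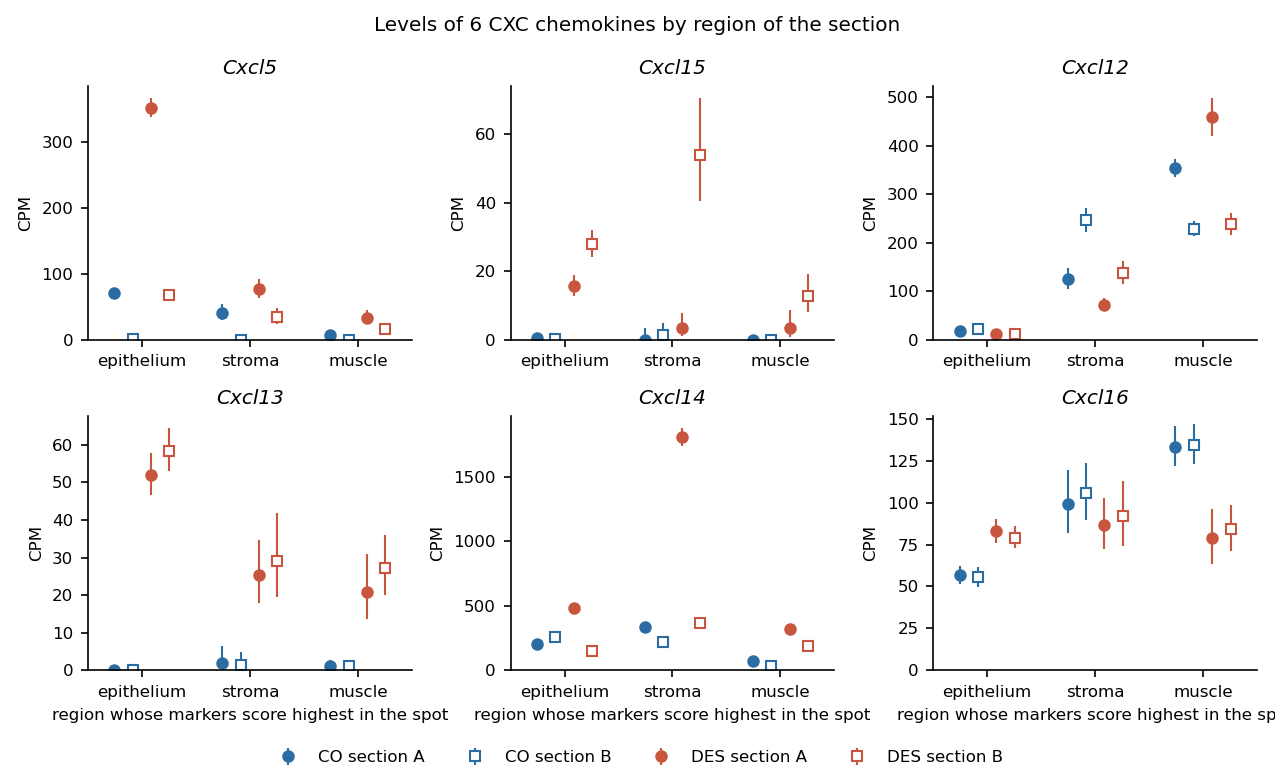
Level in CPM with 95% Poisson intervals of Cxcl5, Cxcl15, Cxcl12, Cxcl13, Cxcl14 and Cxcl16 in epithelium-rich, stroma-rich and muscle-rich spots of the 4 sections. Cxcl13 was 52.0 and 58.5 CPM in DES epithelium-rich spots against at most 1.79 CPM in any CO region, and Cxcl12 was lowest in epithelium-rich spots of all sections.

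Cxcl13 was highest in 1 spot cluster of each DES section, both with basal markers. Cluster 1 of DES A, 332 spots led by Tff1, Spink5, Krt6a, Sprr1a and Krt13, stood at 83.8 CPM and held 73.3% of the section's Cxcl13 UMIs. Cluster 7 of DES B, 106 spots led by Kap, Akr1c18, Cxcl5, Tff1 and Krt6a, stood at 157 CPM and held 47.4%. No CO cluster exceeded 3.64 CPM. Basal markers summed to 3.36 and 160 CPM in the CO sections and 9526 and 5644 CPM in the DES sections, and to 15026 and 9031 CPM in those 2 clusters. Clusters 1 and 4 of DES B held nearly as much, 8454 and 8620 CPM, at 53.0 and 47.9 CPM of Cxcl13. In DES A cluster 5 held 12677 CPM of basal markers and 43.1 CPM of Cxcl13, and cluster 8 held 8989 and 36.0 CPM. The part of basal cells in the difference was not tested.

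Cxcl13 is best known from follicular dendritic cells, whose 3 markers summed to 228 and 69.5 CPM in CO and 190 and 200.3 CPM in DES. This sum came almost wholly from Clu, which other cells also make, while Cr2 was at 0 in all 4 sections and Fcer2a was detected in DES B alone. The 5 B cell markers summed to 8.0 and 14.0 CPM in CO and 18.1 and 25.6 CPM in DES. Plasma cell markers differed more, at 355 and 1183 CPM in CO and 6445 and 11520 CPM in DES, and were higher in stroma-rich than in epithelium-rich spots of both DES sections, at 14966 and 35468 against 3625 and 4890 CPM. Cxcl13 had the opposite order. In DES B 60 spots held both Cxcl13 and Cxcl15, 27.9% of the 215 with Cxcl13 and 48.4% of the 124 with Cxcl15, and in DES A 18 did, 8.37% of 215 and 28.1% of 64.

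The single-cell libraries did not show this difference. Cxcl13 was at 0.216 CPM in CO epithelial cells (0.126 to 0.345, from 17 UMIs) and 0.148 CPM in DES epithelial cells (0.0964 to 0.216, from 26 UMIs). In DES basal cluster 8 there was no UMI in 351 cells, with an upper limit of 0.547 CPM, and in basal cluster 11 there was 1. Mesothelial cells held 12.5 CPM in CO (11.7 to 13.3) and 10.2 CPM in DES (9.48 to 11.1), or 51.3% and 71.1% of each library's Cxcl13 UMIs. The 24 UMIs of DES lymphocytes all lay in 1 cell. Why the sections and the dissociated cells differ was not tested.

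Cxcl12, which holds leukocytes and progenitors in place through Cxcr4, was lower in DES sections. It was at 127 and 123 CPM in CO A and CO B and at 79.8 and 66.0 CPM in DES A and DES B, or 125 ± 2.67 CPM and 72.9 ± 9.80 CPM (SD, n = 2 each), without overlap. The log2 difference was -0.99 (SE 0.17, adjusted p 0.0446 by edgeR). The call was lost without DES A (0.322), without DES B (0.427) and without spot cluster 8 of DES A (0.0620), with log2 differences between -1.11 and -0.91 over all 8 alternatives. Markers of the tissues in which Cxcl12 was highest were also lower in DES, muscle markers at 14758 and 16169 CPM in CO against 3562 and 4036 CPM in DES and stromal markers at 5004 and 6132 against 2974 and 2040 CPM, and their part was not tested.

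Within regions the Cxcl12 difference did not pass in the fits reported here, but did under some alternatives. Those alternatives also called more of all genes than the reported fits did. In muscle-rich spots the level was 353, 229, 458 and 238 CPM in CO A, CO B, DES A and DES B, a log2 difference of -0.02 (adjusted p 0.987, edgeR) with overlapping groups. In stroma-rich spots it was 125, 246, 71.2 and 137 CPM (adjusted p 0.358), again overlapping, and passed without CO A (-1.37, adjusted p 0.0274) and when genes with at least 1 UMI were tested (-0.95, adjusted p 0.0341). In epithelium-rich spots it was 18.6, 21.3, 11.4 and 12.0 CPM, a log2 difference of -1.02 (SE 0.22, adjusted p 0.0662), without overlap. That last difference passed without CO A (0.0291), without CO B (0.0390) and with DESeq2 (0.0470), and was -0.21 (adjusted p 0.719) in the top 20% of spots by epithelial score.

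Single CO cells placed Cxcl12 in the vessel wall and connective tissue. It was at 461 CPM (436 to 488) in 341 endothelial cells, 153 CPM (115 to 200) in 75 pericytes, 121 CPM (108 to 134) in 465 cells of the type named Ctla2a, 94.1 CPM (88.6 to 99.8) in 1326 stromal cells and 56.5 CPM (43.3 to 72.5) in 85 myocytes. In this order only pericytes and the Ctla2a type had overlapping intervals, and 10 cells held 81.5% of the pericyte UMIs. After thinning, 47.2% of endothelial cells held a UMI (59.5% before) against 0.351% of epithelial cells, at medians of 6309 and 23458 UMIs. Mesothelial cells held 30.4 CPM in CO and 26.2 CPM in DES, and 86.2% of the DES library's Cxcl12 UMIs were in them. Section DES B had its highest level, 836 CPM, in cluster 9, 47 spots led by Cfd, Car3 and Adipoq, genes of fat cells.

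Cxcl14, a chemokine of skin keratinocytes and fibroblasts, was a stromal gene in CO cells. CO stromal cells held 1308 CPM (1287 to 1329), with a UMI in 77.1% of thinned cells (91.1% before thinning) against 7.06% of epithelial cells, and the Ctla2a type held 311 CPM (290 to 332). Epithelial cells held 25.3 CPM in CO (24.2 to 26.4) and 24.8 CPM in DES (24.0 to 25.5), a ratio of 0.980 (0.929 to 1.03). Mesothelial cells held 85.8 CPM in CO (83.8 to 87.8) and 16.8 CPM in DES (15.8 to 17.9), 5.10-fold lower in DES (4.78 to 5.44), beside a whole-library level of 125 and 22.6 CPM.

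In sections Cxcl14 was set apart by DES A alone. It was at 177 and 173 CPM in CO A and CO B, 681 CPM in DES A and again 177 CPM in the other DES section, so that 3 of the 4 sections lay within a few CPM. The log2 difference was 1.07 (SE 0.61, adjusted p 0.359 by edgeR) and was -0.17 without DES A. In muscle-rich spots, at 73.8, 29.3, 322 and 186 CPM, both DES sections were above both CO sections, and the call was lost without DES A (adjusted p 0.0899). Stroma-rich spots held 333, 215, 1810 and 370 CPM (edgeR, adjusted p 0.230), so DES B lay close to CO A. With all sections the difference passed only when genes with at least 1 UMI were tested (edgeR, adjusted p 3.61e-08). That fit called 567 of all genes higher and 628 lower, against 162 and 96 in the reported fit. The Cxcl14 counts are the same in both fits, and DES A alone stood apart. Cluster 4 of DES A, 211 spots led by Prg2, Ighg2c, Ccl11, Sfrp2 and Mfap4, reached 1995 CPM and held 32.6% of that section's Cxcl14 UMIs.

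Cxcl16, the membrane-bound ligand of Cxcr6, was nearly even across whole sections, at 83.2, 89.5, 83.0 and 81.4 CPM. The log2 difference was -0.28 (SE 0.15, adjusted p 0.340 by edgeR). Its regions differed, with 134 and 135 CPM in CO and 78.6 and 84.3 CPM in DES muscle-rich spots, and 56.7 and 55.3 CPM in CO and 83.0 and 79.1 CPM in DES epithelium-rich spots. The epithelial log2 difference was 0.27 (adjusted p 0.366). The muscle call was lost without DES A (0.386), without DES B (0.392) and in the top 20% of spots by muscle score (0.163).

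Among single cells Cxcl16 was highest in myeloid cells, at 424 CPM in CO (374 to 478) and 821 CPM in DES (782 to 862), 1.94-fold higher in DES (1.70 to 2.22). The 6 macrophage markers in these cells summed to 10126 CPM in CO and 19261 CPM in DES and the stromal markers to 5677 and 292 CPM, and their part in the difference was not tested. After thinning Cxcl16 was found in 71.6% and 89.0% of the myeloid cells, against 13.0% and 9.29% of epithelial cells at greater median depth. Mesothelial cells held 99.2 and 112 CPM, and epithelial cells 48.6 CPM in CO and 28.8 CPM in DES. Of DES epithelial cells, basal cluster 8 held 69.2 CPM, basal cluster 11 held 50.5 CPM and the others 26.6 CPM.

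Of the interferon-induced pair, Cxcl9 was highest in mesothelial cells, while Cxcl10 was highest in myeloid cells, at 255 CPM in CO and 277 CPM in DES. Cxcl9 was at 54.7 CPM (53.1 to 56.3) in 6866 CO and 242 CPM (239 to 246) in 3837 DES mesothelial cells, 4.43-fold higher in DES (4.29 to 4.58), and 60.5% and 85.8% of each library's UMIs were in these cells. After thinning it was held by 11.4% (10.6 to 12.2, from 6718 cells) and 33.1% (31.6 to 34.7, from 3782 cells), and by 0.156% and 0.750% of epithelial cells, with mesothelial medians of 10436 and 12329 UMIs and epithelial medians of 23458 and 21900. Without thinning the mesothelial shares were 27.6% and 63.2%. Cxcl10 was at 106 CPM (104 to 108) in CO and 102 CPM (99.9 to 105) in DES.

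The pair was also counted together in single cells, without thinning. In DES 489 mesothelial cells held both, 20.2% of the 2424 with Cxcl9 and 80.3% of the 609 with Cxcl10. In CO 344 held both, 18.2% of 1895 and 28.1% of 1224. The last share lay near that of Cxcl9 over all CO mesothelial cells, 27.6%, and the DES share of 80.3% above 63.2% over all DES mesothelial cells. Of the 8 chemokines at 10 CPM in mesothelial cells, 1 (Cxcl9) was over 2-fold higher in DES, as were 1.89% of all genes, and 3 (Cxcl1, Cxcl2 and Cxcl14) were over 2-fold lower, as were 2.33%. Irf1, an interferon-induced transcription factor, was at 97.3 CPM in CO and 48.6 CPM in DES mesothelial cells.

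Cxcl9 and Cxcl10 were low in sections, where mesothelial markers summed to 35.6 to 59.2 CPM. Cxcl9 was at 0.320 and 1.72 CPM in CO A and CO B and 0.329 and 2.02 CPM in DES A and DES B, and Cxcl10 at 3.60, 3.08, 0.768 and 4.15 CPM. The groups overlapped for both, with log2 differences of 0.06 (adjusted p 0.983, edgeR) and -0.62 (adjusted p 0.690). Of the 20 Cxcl9 UMIs of DES B, 25.0% lay in cluster 9, and of its 41 Cxcl10 UMIs 63.4% lay in cluster 2. These Cxcl9 UMIs lay in 8 spots, and 1 spot held 13 of the Cxcl10 UMIs. 

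Lymphocytes and myeloid cells were the smaller types shared by the libraries. Of 7 chemokines at 10 CPM in lymphocytes, Cxcl9 was over 2-fold higher in DES (3.56 to 11.4 CPM, from 8 and 17 UMIs), as were 6.73% of all genes, and Cxcl14 over 2-fold lower (30.7 to 5.37 CPM, from 69 and 8 UMIs), as were 5.05%. Cxcl14 over the whole library was at 125 CPM in CO and 22.6 CPM in DES, and free RNA from stromal cells, which the DES library all but lacks, was not separated from the lymphocytes' own. Cxcl1 (102 and 154 CPM in CO and DES), Cxcl2 (659 and 806 CPM) and Cxcl10 (83.6 and 145 CPM) were higher in DES lymphocytes by less than 2-fold. Counting intervals of these ratios lay above 1, but they do not allow for the few cells that held most DES Cxcl1 and Cxcl2 UMIs. Under this label neutrophil markers were at 2637 and 7906 CPM and plasma cell markers at 135436 and 11894 CPM, and their part was not tested. Of 6 in myeloid cells, none was over 2-fold higher, as were 4.89% of all genes, and Cxcl9 was over 2-fold lower (19.5 to 8.83 CPM, from 12 and 18 UMIs), as were 22.8%.

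The place of the chemokines within a section was compared between epithelium-rich spots and the mean of stroma-rich and muscle-rich spots, with the section as block. In CO sections 29.1% of 13088 genes were higher and 26.4% lower in epithelium-rich spots, and of 7 chemokines tested Cxcl5 (log2 difference 2.10, SE 0.33, adjusted p 0.000154 by edgeR) and Cxcl14 (1.04, SE 0.28, adjusted p 0.00720) were higher there. Cxcl12 (-3.56, SE 0.38, adjusted p 5.84e-06 by edgeR), Cxcl13 (-3.66, SE 0.77, adjusted p 0.00144) and Cxcl16 (-1.07, SE 0.12, adjusted p 1.13e-05) were lower there. The CO contrast of Cxcl13 rests on 13 UMIs, with 1 in epithelium-rich, 4 in stroma-rich and 8 in muscle-rich spots. In DES sections 14.1% were higher and 17.4% lower, and Cxcl5 (2.18, SE 0.23, adjusted p 1.95e-05) and Cxcl13 (1.00, SE 0.17, adjusted p 0.000772) were higher while Cxcl12 (-4.11, SE 0.41, adjusted p 1.13e-05) and Cxcl14 (-0.90, SE 0.29, adjusted p 0.0308) were lower. Cxcl5 and Cxcl12 lay on the same side in both groups, and Cxcl13 and Cxcl14 on opposite sides. Mean Cxcl14 in epithelium-rich, stroma-rich and muscle-rich spots was 230, 274 and 51.6 CPM in CO and 315, 1090 and 254 CPM in DES. Its CO contrast was thus positive although stroma-rich spots held more on average. In CO the Cxcl5 call was lost without CO A (adjusted p 0.102) and the Cxcl14 call without CO B (0.289). When genes with at least 1 UMI were tested in DES, 5 of 10 chemokines were higher in epithelium-rich spots and 2 lower. The higher ones were Cxcl1, Cxcl2, Cxcl5, Cxcl13 and Cxcl15. Of all 19821 genes in that fit 2350 were higher and 2272 lower. In DES the Cxcl13 call was lost without DES A (0.0667) and the Cxcl14 call without either DES section (up to 0.255).

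Tested directly, the contrast between epithelium-rich and other spots differed between DES and CO sections for 3 of the 7 chemokines. Of all genes 4.74% had a higher and 6.86% a lower contrast in DES. Cxcl13 (4.66, SE 0.79, adjusted p 0.00315 by edgeR) and Cxcl16 (0.89, SE 0.17, adjusted p 0.00614) had a higher one, and Cxcl14 (-1.93, SE 0.40, adjusted p 0.00934) a lower one. The fitted Cxcl13 value depends on the prior count, because CO epithelium-rich spots held 1 UMI. The Cxcl16 call was lost without DES A or DES B (adjusted p up to 0.123) and the Cxcl14 call without DES B (0.0901). Basal markers were also found outside the epithelium-rich spots of DES, at 7638 and 4516 CPM in stroma-rich spots against 0.894 and 106 CPM in CO, and their part in these differences was not tested.

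**Figure D5:**
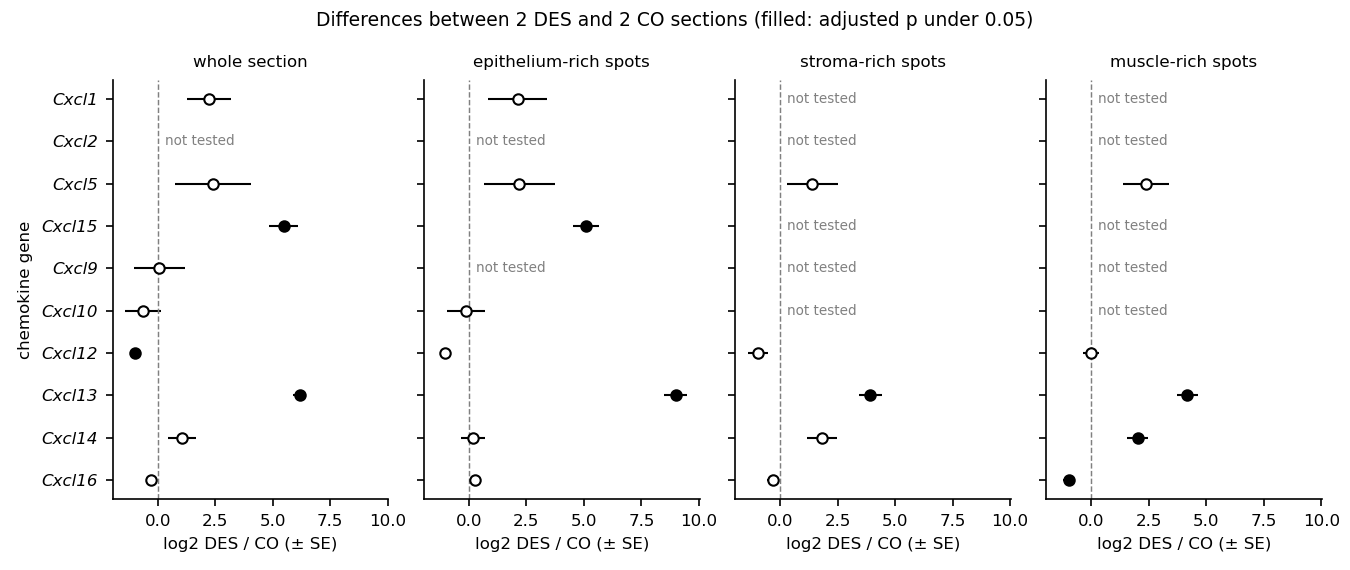
Difference between DES and CO (log2, TMM scale) with its standard error from edgeR for each chemokine tested in whole sections and in epithelium-rich, stroma-rich and muscle-rich spots, with filled points for an adjusted p under 0.05. Cxcl13 was higher in all 4, from 3.93 in stroma-rich to 8.98 in epithelium-rich spots, Cxcl15 was higher in whole sections (5.47) and epithelium-rich spots (5.10), and Cxcl12 was lower in whole sections (-0.99).

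Among the 8 receptors, 5 could be tested in whole sections, and Cxcr6, the receptor of Cxcl16 on tissue T cells, was higher in DES, as were 2.67% of all genes. None was lower by edgeR, at an unadjusted p under 0.05 or by DESeq2. Cxcr6 was at 0.880 and 1.27 CPM in CO and 6.47 and 8.40 CPM in DES, from 11, 14, 59 and 83 UMIs, without overlap (log2 difference 2.58, SE 0.40, adjusted p 0.0380 by edgeR). The call was lost without DES A (0.180) or DES B (0.272). In lymphocytes it was at 35.6 CPM in CO and 156 CPM in DES, 4.40-fold higher (3.40 to 5.74). The cells under this label differed in make-up between CO and DES, with T cell markers at 319 and 453 CPM beside the plasma cell and neutrophil sums given above, and the part of this was not tested. Cxcr6 was found at under 1 CPM in every other named type of at least 50 cells. T cell markers summed to 3.12 and 4.35 CPM in CO sections and 12.3 and 26.3 CPM in DES sections, and the part of T cell number was not tested.

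The other receptors lay in distinct cells. Cxcr2, on neutrophils, was at 9.79 and 31.6 CPM in lymphocytes of CO and DES, the label under which neutrophil markers also lay, and Cxcr1 at 30.5 CPM in Lyz2-high myeloid cells. Cxcr4 was at 392 CPM in DES and 146 CPM in CO myeloid cells, which differed in macrophage and stromal markers as given beside Cxcl16. Cxcr5, the receptor of Cxcl13, was at 11.6 and 4.03 CPM in lymphocytes, from 26 and 6 UMIs. Ackr3, which takes up Cxcl12, was at 133 CPM in CO stromal cells and was 3.18-fold higher (2.97 to 3.41) in DES than in CO mesothelial cells, at 44.5 and 14.0 CPM.

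Of the 3 processing enzymes 1 was lower, against 2.63% of all genes. Dpp4, which trims and inactivates chemokines such as Cxcl10 and Cxcl12, was lower in DES, at 15.9 and 18.9 CPM in CO and 6.03 and 8.0 CPM in DES (log2 difference -1.51, SE 0.26, adjusted p 0.0466 by edgeR), a call lost without DES A (0.312) or DES B (0.202). It was also lower in epithelium-rich spots (-2.0, adjusted p 0.0311), but stood at 40.1 CPM in CO and 44.3 CPM in DES epithelial cells. Adam10 and Adam17, which shed Cxcl16, did not pass.

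Of the 6 other chemokines tested, Cxcl3 and Cx3cl1 were higher and Cxcl17 was lower in DES sections, where 2.67% of all genes were higher and 2.63% lower. Cxcl3, a further ELR gene, was at 0.240 and 0.181 CPM in CO and 12.6 and 3.74 CPM in DES (log2 difference 4.97, SE 0.84, adjusted p 0.0440 by edgeR), and Cx3cl1, a membrane-bound chemokine, at 30.4, 21.7, 75.1 and 73.8 CPM (1.30, SE 0.23, adjusted p 0.0483). Cxcl17, a mucosal chemokine, was at 595 CPM in both CO sections and 275 and 308 CPM in DES (-1.24, SE 0.18, adjusted p 0.0337). Of these calls Cxcl3 was lost without any 1 section (adjusted p 0.0520 to 0.205), and Cx3cl1 (0.269 and 0.286) and Cxcl17 (0.322 and 0.241) without DES A or DES B. In single epithelial cells Cxcl17 was at 324 CPM in CO and 429 CPM in DES, 1.33-fold higher in DES (1.31 to 1.34), the reverse of the sections.

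The inducers and feedback regulators of these genes comprised 11 genes, of which 9 could be tested in whole sections and none passed by edgeR. At an unadjusted p under 0.05 there were 2, Il1a and Il1b, and with DESeq2 both passed. Il1b was at 2.24 and 0.816 CPM in CO and 43.9 and 6.78 CPM in DES, with DES A again the highest. Within sections 5 of the 9 were higher in epithelium-rich than in other spots of CO (Il1a, Irf1, Nfkbia, Nfkbiz and Zc3h12a), as were 29.1% of all genes, and in DES these and Il1b were, as were 14.1%. Il1a was at 1.84 and 0.816 CPM in CO and 4.61 and 8.0 CPM in DES sections, and at 2.86, 1.57, 5.76 and 10.2 CPM in epithelium-rich spots, without overlap. Among single cells the order was the reverse in epithelial and mesothelial cells, while in myeloid cells Il1a was higher in DES, at 307 CPM in CO and 472 CPM in DES, a ratio of 1.54 (1.32 to 1.81). In epithelial cells the interleukin Il1a was at 33.2 CPM in CO and 0.460 CPM in DES, 72.3-fold lower (57.9 to 91.3), Tnfaip3, an NF-kappaB target that restrains the pathway, was at 111 and 5.10 CPM, 21.8-fold lower (20.4 to 23.4), and Nfkbiz, another target, at 211 and 65.9 CPM. In lymphocytes Il17a was at 20.9 CPM in CO and 174 CPM in DES, from 47 and 259 UMIs, under the same differing make-up.

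Each chemokine was set beside 12326 genes over the 14 groups of cell type and library with at least 50 cells, by Pearson's r of log2(CPM + 1). The most alike genes were Opa3, Ube2s and the NF-kappaB target Nfkbiz for Cxcl1 (0.91, 0.89 and 0.86), Ctsc, Fyb and Pld4 for Cxcl2 (0.96, 0.96 and 0.95) and Pm20d1 for Cxcl5 (0.86). They were Jam3, Col4a2 and Hoxd9 for Cxcl12 (0.98, 0.96 and 0.95), Rgs10 and Ctsh for Cxcl16 (0.93 and 0.92), RP23-214M22.3 and Tff1 for Cxcl15 (0.92 and 0.91) and Acot7 for Cxcl13 (0.91). For Cxcl9, Cxcl10 and Cxcl14 they were Mobp (0.94), Ehd1 (0.89) and Pomt1 (0.84). The groups share 2 libraries and differ in depth, and the values carry no test.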

How the data were processed

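Uterine cells of 2 single-cell libraries and spots of 4 tissue sections were analysed. The authors made the deposited counts of unique molecular identifiers with, per the submitters' processing notes, bcl2fastq 2.20.0.422, Cell Ranger 3.0.1 and Space Ranger 1.2.2 on mm10. Per the study's methods, potential barcode swapping was looked for and potential doublets were removed, and no doublet caller was run here. Cell types, epithelial clusters and spot clusters are the authors' annotation, and 350 annotated cells without counts were not used.

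UMIs were summed per cell type and library, section or region, and divided by the total (CPM). Regions were spots with the highest of 3 marker scores at 10000 UMIs per spot. Section sums were tested with edgeR 4.0.16 in R 4.3.3 (TMM, filterByExpr, quasi-likelihood, Benjamini-Hochberg over all genes, threshold 0.05), and the 12 region sums with the section as block. DESeq2 1.42.0 was an alternative. CO and DES cells were compared by the ratio of CPM where either reached 10 CPM. Tables were handled in Python 3.11.15 with numpy 2.4.6, scipy 1.17.1 and pandas 2.3.3. The fits were tested on simulated data first. All 10 chemokines are named, and genes of the receptor, enzyme, chemokine and inducer lists where they passed or a result turns on them. Members and lists were chosen with earlier results of these data known, and the split of DES epithelium by basal cluster after the cluster levels were seen. The deposited counts reach 9117099 UMIs or more per section, and counts under about 3 UMIs carry little information on level.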

Additional observations from a re-analysis of the deposited data

Results flagged for a closer look

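The contrast between epithelium-rich and other spots differed between DES and CO sections for 3 of the 7 chemokines tested. The test was the interaction test of edgeR with Benjamini-Hochberg adjustment over 13088 genes, of which 4.74% had a higher and 6.86% a lower contrast in DES. For Cxcl13 the contrast in DES exceeded that in CO by 4.66 on the log2 scale (SE 0.79, adjusted p 0.00315), with levels of 0.130 and 0 CPM in CO and 52.0 and 58.5 CPM in DES epithelium-rich spots. The Cxcl13 value rests on 1 UMI in CO epithelium-rich spots. For Cxcl16 the contrast in DES exceeded that in CO by 0.89 (SE 0.17, adjusted p 0.00614 by edgeR), a call lost without DES A or DES B. For Cxcl14 the difference was -1.93 (SE 0.40, adjusted p 0.00934 by edgeR), a call lost without DES B. Its stroma-rich levels were 333, 215, 1810 and 370 CPM in CO A, CO B, DES A and DES B. Beside these, basal markers in stroma-rich spots were at 0.894 and 106 CPM in CO and 7638 and 4516 CPM in DES, and their part in the 3 differences was not tested.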

How the results depend on the processing

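No paired analysis was possible because the labels give the groups fewer than 2 shared replicate marks and the sections came from different mice. Of 366 alternative values of the chemokines in section tests, 313 kept direction and side of the threshold, 23 lost a call, 14 gained one and 16 changed sign, none of the latter called in the reported fit. Where the cause of a change is not given it was not tested. Leaving out a section leaves 1 in a group, which is assumed to vary like the others. It moved the number of genes called between 0 and 2831 in epithelium-rich spots (653 reported), 232 and 1797 in muscle-rich (710), 76 and 1454 in stroma-rich (258) and 3 and 2819 in whole sections (747), and between 1401 and 5164 for the contrast within DES sections (4122) and 185 and 2304 for DES minus CO (1519). The counts of 0 by edgeR, without DES A or DES B, went with 1513 and 1645 genes at an unadjusted p under 0.05, and DESeq2 was not run on them. DESeq2 called 1718 genes in epithelium-rich spots, 1791 in whole sections and 904 for DES minus CO. Testing genes with at least 1 UMI gave 1164, 1473 and 1195 in epithelium-rich, muscle-rich and stroma-rich spots, the top 20% of spots 450 in muscle-rich, and the clusters the study names stroma 131. Log2 differences changed sign for Cxcl12 in muscle-rich spots (0.50 in the top 20%, -0.54 to 0.36 over left-out sections, 0.33 without CO A) and in the clusters named stroma (0.20), and there also for Cxcl16 (0.71). Over left-out sections they ran from -1.85 to 0.63 for Cxcl10 (0.11 without CO A) and -0.86 to 0.79 for Cxcl14 in epithelium-rich spots. In whole sections they ran from -1.81 to 1.64 for Cxcl9 (-0.70 without CO A), -2.36 to 0.12 for Cxcl10 and -0.17 to 1.70 for Cxcl14. For DES minus CO they ran from -3.16 to 0.66 for Cxcl5 (-0.65 without DES A, and -0.10 with DESeq2) and -3.85 to 0.37 for Cxcl15. Of 104 alternative single-cell ratios 91 moved by less than their counting interval and 1 changed sign, Cxcl10 in mesothelial cells (1.17 as a mean over cells). By that mean the epithelial ratios were 0.251 for Cxcl1 and 0.176 for Cxcl2 and the mesothelial ratio of Cxcl9 was 4.93. Of 58 alternative differences in share 33 did so and 1 changed sign, Cxcl13 in mesothelial cells (0.0357 percentage points without thinning). Leaving out spot cluster 8 of DES A and cells with shared barcodes were alternatives chosen after seeing the data. Depth limits Cxcl1, Cxcl2, Cxcl9 and Cxcl10 in sections, where counts were as low as 2 UMIs.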
